A study of Rattus norvegicus with 64 samples.

Results

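Immediate early stress genes are 10 rat genes, Fos, Fosb, Jun, Junb, Egr1, Egr2, Atf3, Ier2, Dusp1 and Nr4a1, followed here in bladder walls rebuilt with a graft. They were chosen as a family, by name, with earlier results of these data known. Every gene probe whose RefSeq transcript maps to a listed symbol was taken. This gave 10 probes, 1 for each gene, of 30367 gene probes, and 10 of 15715 named genes. A gene name was found for 18758 of the probes, so unnamed probes of the same genes may exist. All 64 arrays carried a value for all 10 genes. Male Wistar rats, syngeneic with the donors, had a hemicystectomy, in which part of the bladder is cut away, and the defect was closed with bladder acellular matrix (BAM), a scaffold of bladder wall without cells. The BAM was unseeded or seeded with adipose stromal cells (BAM+ASCs), which were grown from retroperitoneal fat to the third passage. The walls were taken after 7, 30, 90 or 180 days, with 8 arrays in each of 8 groups, labelled as biological replicates. All groups had the surgery and the scaffold, and no unoperated bladder was analysed here. RNA came from the whole reconstructed wall, so a change in the number of cells of a type and a change of RNA per cell cannot be told apart.

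Immediate early genes are transcribed within minutes of a signal, before any new protein has to be made. Growth factors, stretch and injury reach them through MAP kinases, serum response factor and CREB. Fos, Fosb, Jun and Junb are subunits of the AP-1 transcription factor, Egr1 and Egr2 are zinc finger factors, Atf3 is a stress factor of the ATF/CREB family and Nr4a1 is an orphan nuclear receptor. Ier2 is a small nuclear protein of the same early wave. Dusp1 is a phosphatase that switches MAP kinases off again. In the bladder, Fos and Egr1 are known as early responders to stretch and injury of the wall.

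The promoters of 4 of the genes are shown because the levels of Ier2, Dusp1 and Junb moved with that of Fos from array to array while that of Fosb did not. Egr1 moved with Fos too, and its promoter was searched but is not shown. Each is the 250 bases before the RefSeq transcription start in assembly GRCr8, on the strand of the gene. Capitals mark the cAMP response element TGACGTCA and its core TGACG, searched on both strands. The core lies inside the full element, so each full element also counts as a core on both strands. The CArG box, the binding letters of serum response factor, and the AP-1 site TGACTCA were searched too, and neither was found in these 4 windows.
Ier2, chr19:40399123-40399372, plus strand: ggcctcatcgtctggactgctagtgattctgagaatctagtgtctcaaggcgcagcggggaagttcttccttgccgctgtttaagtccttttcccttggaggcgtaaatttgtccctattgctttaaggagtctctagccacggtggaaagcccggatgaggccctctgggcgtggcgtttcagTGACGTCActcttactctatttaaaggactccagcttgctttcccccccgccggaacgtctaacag
Dusp1, chr10:17184603-17184852, plus strand: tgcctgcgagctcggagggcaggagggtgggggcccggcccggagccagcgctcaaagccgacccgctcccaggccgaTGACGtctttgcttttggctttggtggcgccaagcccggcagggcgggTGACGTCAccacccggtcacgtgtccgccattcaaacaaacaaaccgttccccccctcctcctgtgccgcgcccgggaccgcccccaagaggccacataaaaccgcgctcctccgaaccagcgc
Junb, chr19:40080876-40081125, plus strand: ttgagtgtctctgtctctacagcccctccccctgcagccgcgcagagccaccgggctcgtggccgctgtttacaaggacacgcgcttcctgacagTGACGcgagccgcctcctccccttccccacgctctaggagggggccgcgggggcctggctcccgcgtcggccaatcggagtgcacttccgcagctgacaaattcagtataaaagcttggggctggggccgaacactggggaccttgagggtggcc
Fosb, chr1:88089185-88089434, minus strand: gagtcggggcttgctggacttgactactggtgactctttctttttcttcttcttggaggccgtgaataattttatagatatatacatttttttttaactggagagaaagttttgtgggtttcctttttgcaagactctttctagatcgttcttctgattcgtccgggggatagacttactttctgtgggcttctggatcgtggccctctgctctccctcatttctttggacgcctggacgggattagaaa
Of the 7 members with a promoter entry (all but Fos, Jun and Atf3), Ier2 and Dusp1 held the full element, which was found in 1.59% of 33469 promoters. The core was in 6 of the 7, against 18.2% of all promoters, and the exception was Fosb. Nr4a1, with 4 cores, and Egr2, with 1, were among the 6, and neither passed the test of moving with Fos. A relation of the core to the levels was not tested. A CArG box was in Egr1, with 2, and in Egr2, with 1, against 1.5% of all promoters. The AP-1 site was in none of the 7, against 4.05% of all promoters. These are matches of letters only.

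Levels are given as log2 of the probe's intensity minus the 75th percentile of its array, so 0 is the level of the array's 75th percentile. Levels are compared within a gene and never between genes. The gene spots well above background were 73.3% to 95.6% of an array at 7 and 30 days and 35.5% to 64.6% at 90 and 180 days, and the slides of these pairs of days were scanned on different dates. At 90 days the grafts differed as well, with 35.5% to 58.5% of spots well above background in BAM and 54.3% to 64.6% in BAM+ASCs. The median local background of an array was 321 to 366 in BAM and 99 to 120 in BAM+ASCs at this day. Each group had a slide of its own, so slide and group cannot be told apart in any comparison between groups. The replicates were compared within a slide. All 9 measured smooth muscle markers were well above background on every array of every group, and 8 or 9 of the 9 urothelium markers were so in each group. Of the 10 genes, 7 were well above background on all 64 arrays. The exceptions were Fos, on 7 of 8 arrays of BAM at 90 days, Egr2, on 6 or 7 of 8 arrays of each later group, and Dusp1, on 6 of 8 arrays of BAM at 90 days and 7 of 8 in BAM at 180 days.

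Fos was the AP-1 gene that differed most between arrays of one group. In BAM at 7 days its lowest, median and highest levels were -2.04, -1.13 and 0.66, and in BAM+ASCs at 7 days they were -1.30, -0.53 and -0.47. At 30 days they were -1.57, -0.88 and 1.78 in BAM and -1.35, -0.82 and 0.37 in BAM+ASCs. The single BAM array at 1.78 was the highest of all 64. At 90 days they were -2.67, -1.45 and 0.74 in BAM and -2.57, -0.85 and 0.07 in BAM+ASCs, and at 180 days -2.30, -0.95 and 1.40 and -2.35, -1.80 and 0.62. The grafts overlapped at every day. The group means lay between -1.40 and -0.45, and none of the 28 pairs of groups passed the test, limma with Benjamini-Hochberg adjustment over all 30367 probes, an adjusted p under 0.01 and a fold over 1.5. Taken over all probes and all 28 pairs together, 28.7% of the tests passed, and the share in a single pair ran from 0.112% to 52.9%. Of the 280 tests of the 10 members, 48 passed, or 17.1%.

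**Figure D1:**
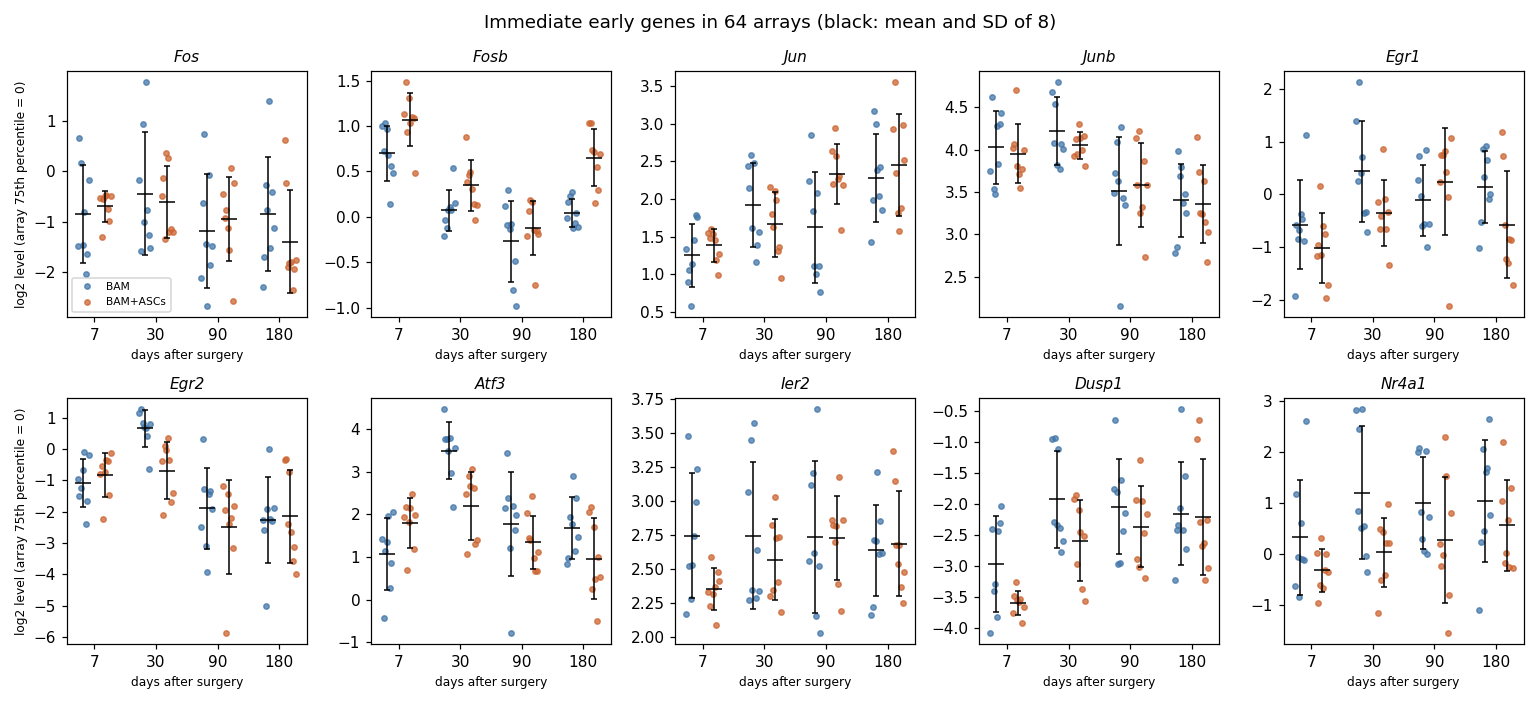
Log2 level of each of the 10 genes (y axis, 0 is the 75th percentile of the array) against days after surgery (x axis), 8 arrays a group, with the mean and SD in black. Fosb of BAM+ASCs at 180 days sits at 0.65 ± 0.31 against 0.05 ± 0.15 in BAM, and BAM at 30 days has the highest group mean in 8 of the 10 panels, all but Fosb and Jun.

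Fosb, the paralog of Fos, was the only member that passed the test between the grafts. At 180 days its lowest, median and highest levels were 0.15, 0.70 and 1.03 in BAM+ASCs and -0.12, 0.01 and 0.27 in BAM. All but 1 of the 8 arrays of BAM+ASCs lay above every BAM array. The difference of the means was 0.60 (SE 0.15, adjusted p = 0.0064), a fold of 1.52, just past the threshold of 1.5. The call was lost with 3 other scalings, normexp background correction (0.52, adjusted p = 0.015), quantile normalization (0.55, adjusted p = 0.011) and the percentile over detected probes (0.55, adjusted p = 0.018), with a fit of the compared groups only (adjusted p = 0.011), and without any of 10 of the 16 arrays (0.55 to 0.60). At 7 days Fosb was 1.07 ± 0.29 in BAM+ASCs and 0.70 ± 0.30 in BAM (SD, n = 8 each), a difference of 0.37 (SE 0.15, adjusted p = 0.082). The differences were 0.27 (adjusted p = 0.24) at 30 days and 0.14 (adjusted p = 0.45) at 90 days. The change of the graft difference from 90 to 180 days was 0.46 (SE 0.21, adjusted p = 0.11) and missed the threshold. Of all probes 741 (2.44%) passed between the grafts at 180 days, 728 of them higher in BAM+ASCs. None of the 64 measured genes of the 8 cell type lists passed in this comparison, which is near that share.

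Fosb also followed the days. It fell from 7 to 30 days in both grafts, by 0.63 in BAM (adjusted p = 0.0014) and by 0.72 in BAM+ASCs (adjusted p = 0.000298). Over all probes 8.65% passed in the BAM comparison and 8.06% in that of BAM+ASCs. The BAM call was lost without BAM replicate 1 or 3 of 7 days, since the fall, 0.58 in either case, then stood under the fold threshold. From 90 to 180 days Fosb rose by 0.78 in BAM+ASCs (SE 0.15, adjusted p = 0.00013), where 4.14% of all probes passed, and the difference in BAM was 0.32 (adjusted p = 0.12). In order from low to high the groups were BAM 90d, BAM+ASCs 90d, BAM 180d, BAM 30d, BAM+ASCs 30d, BAM+ASCs 180d, BAM 7d and BAM+ASCs 7d. No pair of neighbours in this order passed, while 13 of the 28 pairs did.

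Jun and Junb, the Jun side of AP-1, did not pass the test between the grafts at any day. Jun was 1.38 ± 0.21 in BAM+ASCs and 1.25 ± 0.42 in BAM at 7 days. At 90 days its lowest, median and highest levels were 1.59, 2.28 and 2.94 in BAM+ASCs and 0.76, 1.48 and 2.85 in BAM, and 4 of 8 BAM arrays lay below every array of BAM+ASCs. The difference was 0.71 (SE 0.26, adjusted p = 0.031). At the thresholds used here it passed only without BAM replicate 2 of 90 days (0.89, adjusted p = 0.0071). It also passed at an adjusted p under 0.05 or an unadjusted p under 0.01. From the lowest group, BAM 7d, to the highest, BAM+ASCs 180d, Jun differed by 1.20, and 7 of 28 pairs of groups passed.
Junb was 4.22 ± 0.40 in BAM at 30 days and 3.52 ± 0.64 at 90 days, a fall by 0.71 (SE 0.22, adjusted p = 0.0042). The call was lost without BAM replicate 1, 3 or 5 of 30 days or BAM replicate 5 of 90 days (falls of 0.51 to 0.66), with normexp and in a fit of the compared groups only. Its graft differences lay between -0.17 and 0.07. Of 28 pairs of groups 7 passed for Junb, and no neighbours in its order of levels.

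In 8 of the 10 members, all but Fosb and Jun, the group with the highest mean was BAM at 30 days. The share of all probes with their highest mean in this group was not computed. Replicates 1, 3 and 5 of this group had 9, 9 and 10 of the members above the group mean, so the 8 are not independent. Of these 8, Atf3, Egr2 and Junb passed between this group and a neighbouring day. In BAM the lowest, median and highest levels of Atf3 were -0.44, 1.25 and 2.06 on day 7. They were 2.17, 3.66 and 4.46 on day 30 and -0.78, 2.07 and 3.44 on day 90. No array of 7 days reached the lowest of 30 days. Atf3 rose by 2.41 from 7 to 30 days in BAM (SE 0.41, adjusted p = 6.7e-06) and fell by 1.72 from 30 to 90 days (adjusted p = 0.00022). In BAM+ASCs its levels at 30 days were 1.07, 2.55 and 3.06, and the difference from 7 days was 0.39 (adjusted p = 0.47).
At 30 days the graft difference of Atf3 was -1.30 (SE 0.41, adjusted p = 0.034), with 6 of 8 BAM arrays above every array of BAM+ASCs. It missed the threshold of 0.01. At 7 days the difference was 0.72 (adjusted p = 0.24), and the change of the graft difference between the 2 days was -2.02 (SE 0.57, adjusted p = 0.027). The later differences were -0.44 (90 days, adjusted p = 0.39) and -0.71 (180 days, adjusted p = 0.47).
Egr2, a factor also known from macrophages and Schwann cells, had levels of -0.62, 0.77 and 1.28 in BAM at 30 days and -2.12, -0.36 and 0.35 in BAM+ASCs. All but 1 BAM array lay above every array of BAM+ASCs. The difference was -1.35 (SE 0.56, adjusted p = 0.12). From 30 to 90 days Egr2 fell by 2.56 in BAM (SE 0.56, adjusted p = 7.3e-05) and by 1.81 in BAM+ASCs (adjusted p = 0.006). The second call was lost without any of 6 arrays, BAM+ASCs replicates 3 to 6 of 30 days and replicates 3 and 7 of 90 days (falls of 1.32 to 1.76), and in a fit of the compared groups only. From 7 to 30 days in BAM the difference was 1.74 (SE 0.56, adjusted p = 0.018), which passed with normexp and in the fit of the compared groups only.
Atf3, Egr2 and Junb were the 3 of 10 members called from 30 to 90 days in BAM, where 44.7% of all probes passed, 9.49% as lower. The BAM+ASCs comparison of these days had 1 of 10 members, Egr2, and 28.1% of all probes. The days 30 and 90 differed in scan date as well.

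Markers of several cell types changed in the comparisons in which Atf3 or Egr2 was called. Over all probes 8.65% passed from 7 to 30 days in BAM and 44.7% from 30 to 90 days in BAM. Macrophage markers, 1 of the 8 cell type lists, are given first. Their summed log2 level was 7.28 to 7.48 in BAM at 30 days, 6.54 to 7.17 in BAM+ASCs at 30 days and 5.28 to 6.66 in BAM at 90 days. From 30 to 90 days 8 of 10 macrophage markers fell in BAM, and between the grafts at 30 days 0 of 10 passed, with a median difference of -0.79. From 7 to 30 days in BAM 0 of 10 macrophage markers passed, while 8 of 8 neutrophil markers fell and their sum went from between 3.80 and 6.58 to between -0.59 and 2.29. In BAM at 30 days all 10 macrophage markers were well above background on all 8 arrays, and 2 of the 8 neutrophil markers were so on none. Other lists moved in these comparisons too. From 7 to 30 days in BAM 6 of 8 endothelial and 4 of 7 fibroblast markers fell, and 5 of 9 urothelium, 3 of 9 smooth muscle, 2 of 6 adipocyte and 1 of 7 striated muscle markers rose. The endothelial sum went from between 4.17 and 4.89 to between 3.10 and 3.69, and the urothelium sum from between 1.32 and 6.93 to between 6.05 and 7.34. From 30 to 90 days in BAM 5 of 9 smooth muscle, 5 of 7 striated muscle, 3 of 8 endothelial and 3 of 8 neutrophil markers rose, and 3 of 7 fibroblast markers fell. Of the 6 adipocyte markers 1 rose and 2 fell. In BAM at 90 days 0 of the 8 neutrophil markers were well above background on all 8 arrays, and 3 were so on none. For the 7 striated muscle markers these numbers were 2 and 3. The median local background of an array was 49 to 51 in BAM at 30 days and 321 to 366 at 90 days. Rises of markers near the background are therefore uncertain. In BAM+ASCs, where Egr2 fell as well, 4 of 10 macrophage markers fell and 8 of 9 smooth muscle markers rose from 30 to 90 days. Of 8 neutrophil markers 2 rose and 4 fell, and of 6 adipocyte markers 2 fell. At 90 days in BAM+ASCs 0 of the neutrophil markers were well above background on all 8 arrays, and 4 were so on none. Of 7 fibroblast markers 1 rose and 1 fell, and 1 urothelium, 1 endothelial and 1 striated muscle marker rose. Over all probes 28.1% passed in this comparison. The part of these cells in the levels of Atf3 and Egr2 was not tested.

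Egr1, Ier2, Dusp1 and Nr4a1 did not pass in any graft comparison or between successive days. Of the 28 pairs of groups, 3 passed for Egr1 and 5 for Dusp1. Egr1 at 30 days was 0.44 ± 0.96 in BAM and -0.35 ± 0.63 in BAM+ASCs, a difference of -0.78 (SE 0.41, adjusted p = 0.21). At 180 days its lowest, median and highest levels were -1.71, -0.86 and 1.19 in BAM+ASCs and -1.02, 0.17 and 0.91 in BAM. The groups overlapped, and the difference was -0.72 (adjusted p = 0.46).
Ier2 was the steadiest gene over the groups, with means between 2.35 and 2.74. At 7 days it was 2.35 ± 0.15 in BAM+ASCs and 2.74 ± 0.46 in BAM, a difference of -0.39 (SE 0.20, adjusted p = 0.18). None of its 28 pairs of groups passed.
Dusp1 was -3.59 ± 0.20 at 7 days and -2.59 ± 0.65 at 30 days in BAM+ASCs (difference 1.00, SE 0.36, adjusted p = 0.032), and the same difference in BAM was 1.04 (adjusted p = 0.030). Both passed at an adjusted p under 0.05 and not at the threshold of 0.01.
Nr4a1 at 30 days had levels of -0.36, 0.69 and 2.84 in BAM and -1.16, 0.21 and 0.98 in BAM+ASCs. In BAM 3 arrays stood above 2 and above every array of BAM+ASCs, and the difference of the means was -1.17 (SE 0.50, adjusted p = 0.13).

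**Figure D2:**
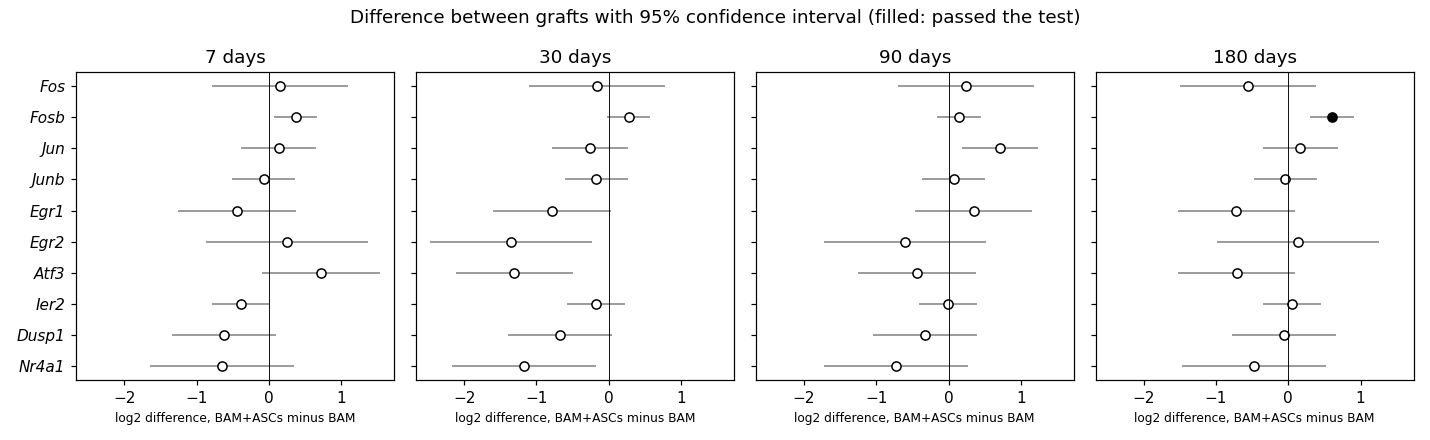
Difference of log2 level, BAM+ASCs minus BAM (x axis), for each gene (y axis) at the 4 days, with 95% confidence intervals. The filled point is Fosb at 180 days, the 1 difference that passed the test. The interval of Fos at 7 days runs from -0.79 to 1.09.

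Across the grafts, 0 of 10 members passed at 7, 30 and 90 days, where 7.73%, 1.67% and 12.5% of all probes did. At 180 days 1 of 10 passed, and 2.44% of all probes. At an unadjusted p under 0.05 the members with a difference numbered 1, 3, 1 and 1, where 29.2%, 25.8%, 47.9% and 14.1% of all probes had one. The median difference over the members was 0.03, -0.47, 0.03 and -0.05 at the 4 days, beside -0.16, 0.11, -0.27 and 0.06 over all probes. The intervals were wide for the genes that varied most. That of Egr2 at 7 days ran from -0.86 to 1.37, so a change of the size of 2-fold was not excluded by the data. That of Ier2 at 90 days ran from -0.41 to 0.39. The change of the graft difference between successive days was called for 0 of 10 members in each of 3 tests, where 1.05%, 11.4% and 11.3% of all probes were called. At an unadjusted p under 0.05 it was 2, 1 and 1 members and 26.7%, 44.9% and 38.3% of all probes. From 90 to 180 days in BAM 0 of 10 members passed by limma (2 at an unadjusted p under 0.05, and 34.1% of all probes), and 9.39% of all probes.

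The spread between arrays of one group differed widely among the members. The SD within groups, pooled over the 8 groups, was 1.13 for Egr2, 1.01 for Nr4a1, 0.957 for Fos, 0.823 for Egr1, 0.822 for Atf3, 0.727 for Dusp1, 0.527 for Jun, 0.440 for Junb, 0.400 for Ier2 and 0.300 for Fosb. The median was 0.223 over the 8583 probes that were well above background on all arrays and 0.516 over all probes, so Fosb, Ier2 and Junb lay below the second median and Jun close to it. Dim probes vary more, so each gene was also set beside the probes within 0.5 of its own mean level. Among these, Nr4a1 stood at the percentile 98.5, Egr2 at 98.2, Atf3 at 97.6, and Fos and Egr1 at 97.0. Jun, Dusp1, Junb and Ier2 stood between 86.8 and 92.7, and Fosb at 70.8. No test was made of these ranks.

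**Figure D3:**
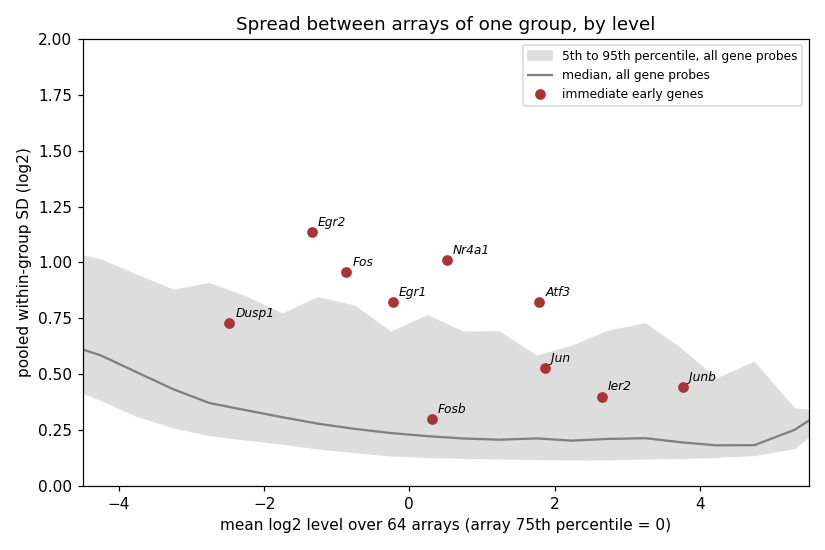
Pooled within-group SD (y axis, log2) against the mean log2 level over 64 arrays (x axis). The grey line and band are the median and the 5th to 95th percentile of all gene probes in steps of level, and the points are the 10 genes. Egr2 at 1.13, Nr4a1 at 1.01, Fos at 0.957, Egr1 at 0.823 and Atf3 at 0.822 lie above the band, and Fosb at 0.300 lies near the line.

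The spread was compared between the grafts as the mean absolute deviation from the group mean. At 7 days the SD of each of the 10 members was smaller in BAM+ASCs, though for Fosb it was 0.293 against 0.305 in BAM. The share of all probes with a smaller SD in BAM+ASCs was not computed at any day. For Fos it was 0.303 against 0.971 in BAM, for Dusp1 0.197 against 0.773, for Ier2 0.153 against 0.460 and for Nr4a1 0.417 against 1.13. In BAM 3 arrays stood above every array of BAM+ASCs for Fos and 4 below. The median SD over all probes was also smaller in BAM+ASCs at 7 days, 0.281 against 0.411. None of the 10 spread differences passed limma with Benjamini-Hochberg adjustment. That of Dusp1 was -0.57 (SE 0.20, adjusted p = 0.12) and that of Fos -0.61 (SE 0.27, adjusted p = 0.25). Over all probes 0.998% passed. At an unadjusted p under 0.05, 4 of 10 members had a difference at 7 days, Fos, Ier2, Dusp1 and Nr4a1, and 16.1% of all probes. Dusp1 passed with normexp.
At 30, 90 and 180 days 0 of 10 passed as well, where 4.97%, 0.962% and 0.263% of all probes did. At an unadjusted p under 0.05 it was 1, 2 and 0 members and 24.8%, 23.6% and 16.6% of all probes. The SD was smaller in BAM+ASCs for 7, 7 and 2 members. The median SD over all probes was smaller in BAM+ASCs at 90 days (0.345 against 0.675) and at 180 days (0.312 against 0.476). At 90 days the local background was also higher in BAM, 321 to 366 against 99 to 120, and its part in the spread was not tested. At 30 days that of Nr4a1 was 0.680 against 1.30 (difference of spread -0.62, SE 0.27, adjusted p = 0.12), while the median SD over all probes at 30 days was larger in BAM+ASCs, 0.463 against 0.281. At 90 days Jun had an SD of 0.400 in BAM+ASCs and 0.737 in BAM (difference of spread -0.37, SE 0.13, adjusted p = 0.082).

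From array to array, 4 of the 9 other members followed the level of Fos. With each value taken as the deviation from its group mean, each probe was regressed on Fos within the groups. Of 30366 other probes, 7 passed, which is 0.0231%, and all rose with Fos. Of these, 4 were members. Ier2 had a slope of 0.34 per log2 unit of Fos (SE 0.03, adjusted p = 4.8e-10), Junb 0.32 (SE 0.04), Dusp1 0.49 (SE 0.08) and Egr1 0.53 (SE 0.09, adjusted p = 0.0012). The fifth named probe was Btg2, an early gene that slows the cell cycle, with a slope of 0.35 (SE 0.05, adjusted p = 5.9e-05). The other 2 probes had no gene name here, so whether they belong to a listed gene is not known. Jun (0.28), Nr4a1 (0.51), Egr2 (0.45) and Atf3 (0.39) had positive slopes with adjusted p of 0.14, 0.24, 0.68 and 0.50. Fosb had a slope of 0.03 (SE 0.04, adjusted p = 0.92, interval -0.06 to 0.11).

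**Figure D4:**
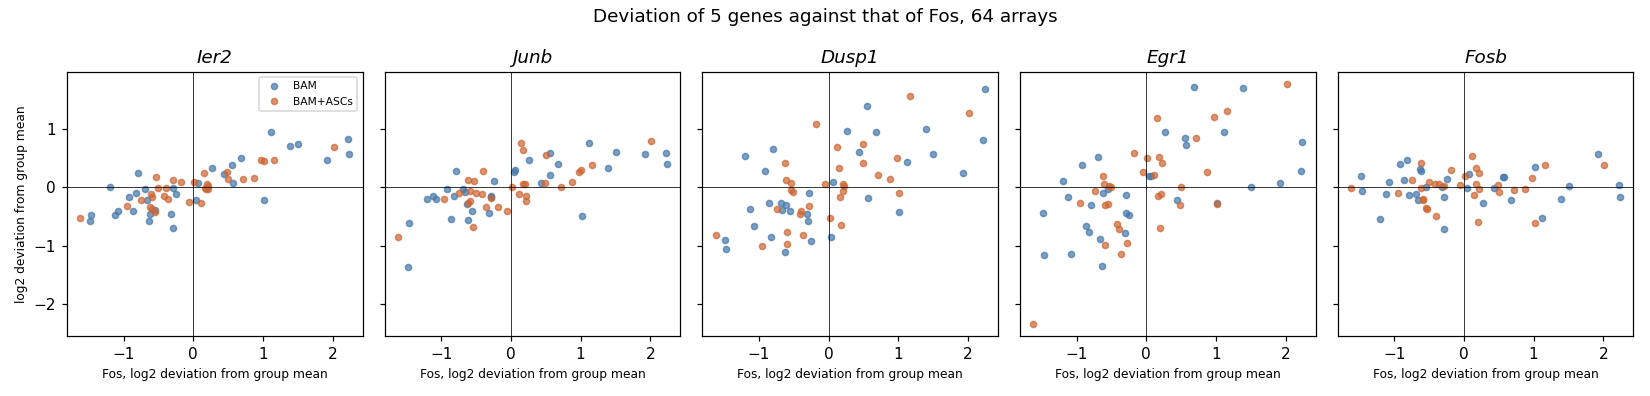
Log2 deviation from the group mean of Ier2, Junb, Dusp1, Egr1 and Fosb (y axis) against that of Fos (x axis) in 64 arrays, colored by graft. The first 4 rise with Fos, with Pearson's r from 0.61 to 0.82, and Fosb does not (r = 0.08).

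As a correlation over the 64 arrays, Ier2 and Fos had r = 0.82 and rho = 0.77, and Junb and Fos r = 0.70 and rho = 0.67 (permutation p within groups of 1e-05 for each, the smallest that 100000 permutations can give). Dusp1 had r = 0.65 and rho = 0.60 and Egr1 r = 0.61 and rho = 0.59, with the same permutation p. Without the 2 arrays with the most extreme Fos, replicate 5 of BAM at 180 days and replicate 5 of BAM at 30 days, r was 0.79, 0.69, 0.60 and 0.63. Within single groups of 8, each on 1 slide, r of Ier2 was above 0 in 8 of 8 groups and ran from 0.28 in BAM+ASCs at 7 days to 0.94. That of Junb ran from 0.07 to 0.83, of Dusp1 from 0.09 to 0.92 and of Egr1 from 0.21 to 0.89, also above 0 in 8 of 8. The lowest value of all 4 genes was that of BAM+ASCs at 7 days, the group in which Fos varied least. Jun had r = 0.50 (permutation p = 0.00029), Nr4a1 0.48, Atf3 0.45 and Egr2 0.38 (permutation p = 0.0046). Fosb had r = 0.08 and rho = 0.05 (permutation p = 0.53 and 0.70). In all, 20 relations with Fos were computed, 9 of them of members, for which the adjustment is that of the slopes over all probes.
In the arrays of 7 and 30 days alone no member passed the slope test (Ier2 0.34, adjusted p = 0.043), in those of 90 and 180 days Ier2 and Junb did, and in those of BAM or of BAM+ASCs alone Ier2 did. The slope of Ier2 was 0.34, 0.34, 0.34 and 0.33 in these sets of 32 arrays. Without BAM+ASCs replicate 1 of 180 days Egr1 was lost (0.49, adjusted p = 0.011).

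**Figure D5:**
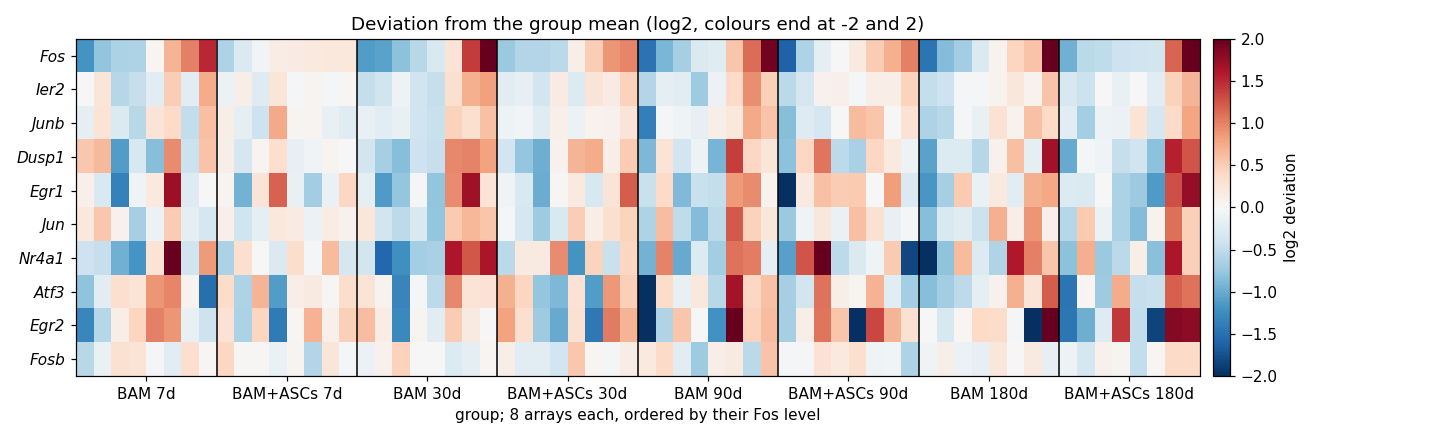
Log2 deviation from the group mean (color) of the 10 genes (rows) in 64 arrays (columns), in 8 groups and ordered by Fos within each. Replicates 1 and 2 of BAM+ASCs at 180 days, the rightmost pair of columns, have all 10 genes above their group mean.

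On 12 of 64 arrays 9 or 10 of the members were above their group mean, and on 13 arrays 0 or 1 was. The same counts for sets of other probes were not computed. Replicates 1 and 2 of BAM+ASCs at 180 days, replicate 4 of BAM+ASCs at 30 days, replicate 5 of BAM at 30 days and replicate 2 of BAM at 90 days had all 10 above. Replicate 6 of BAM+ASCs at 180 days and replicate 7 of BAM+ASCs at 90 days had none. The deviation of Fos was also set against 3 measures of the array and the sums of the 8 cell type lists. With the share of spots well above background it had r = 0.08 and rho = 0.06 (adjusted permutation p = 0.72 and 0.77), with the 75th percentile r = 0.13 and rho = 0.14 (0.72 and 0.58) and with the local background r = 0.20 and rho = 0.16 (0.54 and 0.57). The largest r with a cell type list was that of adipocyte markers (r = 0.26, rho = 0.26, adjusted permutation p = 0.43 and 0.52), followed by urothelium (r = 0.24, rho = 0.23, adjusted permutation p = 0.43 and 0.54). The p-values were adjusted over these 11 relations, and the other 6 lists had r between -0.20 and 0.09, that of neutrophils over 63 arrays, since 1 array lacked a marker.

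With the other members as a reference, the number of probes that passed ran from 12 to 1290. With Ier2 or Egr1 in place of Fos, 12 probes passed (0.0395%), of which 6 were members each time. With Jun 3 members passed among 19 probes (0.0626%), with Dusp1 5 among 29 (0.0955%), with Nr4a1 3 among 20 (0.0659%) and with Junb 5 among 176 (0.580%). All probes of the Ier2, Egr1, Jun, Dusp1 and Nr4a1 sets rose with the reference, while 68 of the 176 of Junb did. With Atf3, 807 probes passed (2.66%), among them Egr2 (slope 0.96, SE 0.13), Jun and Dusp1, and 552 of the 807 rose with it. With Egr2, 1290 probes passed (4.25%), among them Atf3 (slope 0.51, SE 0.07) and Dusp1, and 943 rose with it. With Fosb 258 probes passed (0.850%), 252 of them rising with it, and no member.
By rank of r with Fos among the 5777 named probes well above background on all arrays, and leaving out members, the genes most like Fos were Btg2 (r = 0.67), the Notch target Hes1 (0.46), the matrix protein Ccn1 (0.46), the kinase Pim3 (0.45), Id1 (0.44), Insig1 (0.41), Klf4 (0.41), Snx2 (0.40), Arpc1b (0.40) and Ppp2r1b (0.39), over 64 arrays. Of these, Btg2 passed the slope test. The other 9 had adjusted p of 0.44 to 0.69.

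The rest of the pathway was read from 5 lists, beside the 7.73%, 1.67%, 12.5% and 2.44% of all probes that passed between the grafts at the 4 days. Of 22 other immediate early factors, 0 rose and 1 fell at 7 days in BAM+ASCs against BAM, the nuclear receptor Nr4a2 (difference -0.74, adjusted p = 0.0028), and at 30 days 2 fell, Klf6 (-0.69, adjusted p = 0.0062) and Csrnp1 (-0.87, adjusted p = 0.0073). None passed at 90 and 180 days. The median differences of these 22 were -0.37, -0.34, -0.24 and 0.13 at the 4 days.
Of 18 feedback inhibitors, which damp MAP kinase and cytokine signals, 3 passed at 7 days. Socs3, a brake on Jak-STAT signals, was lower in BAM+ASCs (-1.24, adjusted p = 0.00066), Spry4, a brake on growth factor receptors, was lower (-0.62, adjusted p = 0.0084), and the kinase Sik1 was higher (1.12, adjusted p = 0.0029). At 90 days the phosphatase Dusp2 was lower (-1.14, adjusted p = 0.0055), and at 180 days Spry4 was higher (0.84, adjusted p = 0.00082).
Of 12 early secreted and enzyme genes, Il6, a cytokine of the acute response, was lower at 7 days (-2.20, adjusted p = 0.00103), and none passed later. Of 18 upstream kinases and factors, Mapk3, which encodes ERK1, was higher at 90 days (1.00, SE 0.15) with Map2k6, a kinase of the p38 path (0.92, adjusted p = 0.0023). Of 9 heat shock genes 1 passed, Hspa8, at 90 days (1.25, SE 0.16). The share of each of these 2 lists called at 90 days was 11.1%, near the 12.5% of all probes.
At 7 days, when Nr4a2, Socs3, Spry4, Sik1 and Il6 differed, 7 of 9 urothelium markers were higher in BAM+ASCs, and their sum was 5.78 to 7.44 against 1.32 to 6.93 in BAM. Of 8 neutrophil markers 1 was higher and 2 were lower, with sums of 2.99 to 4.80 against 3.80 to 6.58. Of 8 endothelial markers 2 were lower, with sums of 3.63 to 4.20 against 4.17 to 4.89, and 1 of 6 adipocyte markers was higher. At 90 days 3 of 9 smooth muscle markers were higher, with sums of 7.60 to 8.41 against 6.60 to 8.30. At this day 2 of 7 fibroblast and 1 of 10 macrophage markers were also higher, and 1 of 8 endothelial markers was lower. Their part in these differences was not tested.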

How the data were processed

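The authors hybridized Cy3-labeled RNA of 64 reconstructed bladder walls to Agilent rat arrays, 8 per group, and deposited the output of Agilent Feature Extraction (per the labels) for each array and a series matrix. The processed signal the authors deposited is a linear intensity, corrected for local background by the software. The matrix deposited by the authors, also intensity, served only as an alternative. In it the arrays of BAM+ASCs replicates 2 to 4 of 7 days lay -3.30 to -3.31 log2 from the scanner values (median). BAM replicate 1 of 180 days lacked a usable value for 26650 spots. Each array of the matrix was also scaled to its own 75th percentile. Depth has no meaning on arrays, and the number of arrays limits the precision.

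From the files, each processed signal was taken to log2 and scaled to the array's 75th percentile over gene spots. Control spots and outlier spots were left out, and spots of a probe were averaged. Probes were named through the RefSeq table of GRCr8, for 18758 of 30367 probes. Group means over 64 arrays entered a limma 3.58.1 model (R 4.3.3), adjusted by Benjamini-Hochberg over all probes, and called at an adjusted p under 0.01 and a fold over 1.5 (no fold for changes of the graft difference, spread and slope). Spread was the absolute deviation from the group mean scaled for 8 arrays. Slopes were fitted on the within-group deviation of Fos. Correlations used 100000 two-sided permutations within groups (Python 3.11.15, numpy 2.4.6, scipy 1.17.1). A probe was well above background where at least 0.5 of its spots were. The members and the gene lists were chosen with earlier results of these data known. Named are all members, the 10 genes most like Fos, and listed genes called between the grafts, at most 4 per day and list. Cell type markers were read as list counts and as the log2 of their summed levels. The scripts were tested on simulated data. The alternatives were the background correction, scaling, threshold, samples, block and each array left out.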

Additional observations from a re-analysis of the deposited data

Results flagged for a closer look

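A single array stood apart from the other 7 of its group in 6 of the 80 groups of values (10 genes in 8 groups), by Dixon's criterion at the 95% level, the gap to the nearest array over the range. Chance gives this in about 5% of groups. Egr2 was lowest in BAM+ASCs at 90 days, replicate 3, at -5.88, with the next array at -3.16, and in BAM at 30 days, replicate 7, at -0.62, with the next at 0.44. Egr1 was lowest in BAM+ASCs at 90 days, replicate 7, at -2.11, with the next at -0.05. Junb was highest in BAM+ASCs at 7 days, replicate 3, at 4.71, with the next at 4.07, and lowest in BAM at 90 days, replicate 5, at 2.15, with the next at 3.34. Fosb was lowest in BAM+ASCs at 90 days, replicate 6, at -0.74, with the next at -0.21. Without the Egr2 value of replicate 3 of BAM+ASCs at 90 days, the fall of Egr2 from 30 days was 1.32 and no longer passed. Without the Junb value of replicate 5 of BAM at 90 days, the fall of Junb was 0.51 and no longer passed.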

How the results depend on the processing

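Of 613 recomputed counts of members called, 564 stayed within 1.5 times the count reported. No called difference changed sign. Values of single members that were not called changed sign in 162 recomputed results. The Fosb call between the grafts at 180 days went to 0 with normexp, quantile normalization, the percentile over detected probes, a 2-fold threshold and the fit of the compared groups only. Normexp called 1 member for spread at 7 days. An unadjusted p under 0.01 called 1 member between the grafts at 30 and at 90 days, 4 from 7 to 30 days in BAM, 2 in BAM+ASCs, 1 for the change of the graft difference from 7 to 30 days, 1 for spread at 7 and at 90 days and 8 for the slope on Fos. An adjusted p under 0.05 called 1 between the grafts at 30 and at 90 days, 4 from 7 to 30 days in BAM and 2 in BAM+ASCs, 2 from 30 to 90 days in BAM+ASCs, and 1 for the change of the graft difference from 7 to 30 and from 30 to 90 days. The 2-fold threshold left 1 from 7 to 30 days in BAM, 0 in BAM+ASCs and 0 from 90 to 180 days in BAM+ASCs. The compared groups alone gave 2 from 7 to 30 days and 0 from 30 to 90 days in BAM+ASCs. The slope on Fos, in sets chosen after seeing the data, called 0 members at 7 and 30 days, 2 at 90 and 180 days, 1 in BAM and 1 in BAM+ASCs. With each array left out, the counts ran from 0 to 1 between the grafts at 90 and at 180 days, 1 to 2 from 7 to 30 days in BAM, 0 to 1 from 30 to 90 days in BAM+ASCs, 2 to 3 in BAM, and 3 to 4 for the slope. The other 12 counts did not move. The causes were not tested. Replicate numbers follow the place on the slide. Deviations of arrays with the same number had a median r of 0.04 (-0.58 to 0.57), against -0.00071 for different numbers, so they were not taken as pairs. With the replicate number as a block, 3 members passed the slope on Fos, and Egr1 was lost (0.47). The block changed no other count. At 90 and 180 days dim probes limit Egr2, Dusp1 and Fos.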
